A study of Mus musculus with 22 samples.

Results

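The 1029 loops described here connect cis-regulatory elements (CREs) that lie more than 500 kb apart. They are all entries of the deposited loop table that the authors classed as CRE loops and whose size exceeds 500 kb, and make up 22.2% of 4642 CRE loops and 6.29% of 16370 loops. A CRE is a promoter or an enhancer, marked in the authors' classification by H3K27 acetylation. In a CRE loop both anchors carry such an element and at most a single anchor carries a site bound by CTCF and cohesin. Structural loops have these CTCF and cohesin sites at both anchors, with a CRE at no more than a single anchor, and arise when cohesin extrudes chromatin until CTCF halts it on either side. Chromatin loops are largely absent from condensed mitotic chromosomes and are rebuilt as cells enter G1, which makes mitotic exit a setting in which their formation can be followed.

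The assay was in situ Hi-C, in which DNA fragments lying close together in the nucleus are ligated and sequenced. All cells were uninduced G1E-ER4, a subline of the GATA1-null mouse proerythroblast line G1E, in which both CTCF alleles were fused to an auxin-inducible degron and mCherry. All cells also expressed OsTiR, the plant F-box protein that auxin brings to the degron, with GFP from a retroviral vector (OsTiR-IRES-GFP, or OsTiR-IRES-GFP-MD for ana/telophase). Control and depleted cells thus shared these alterations. Cells were arrested with 200 ng/ml nocodazole and sorted in prometaphase (0 min after release), ana/telophase (30 min in the sample labels, 25 min in the treatment protocol), early-G1 (60 min) and mid-G1 (120 min). In the +auxin groups CTCF was degraded by auxin added during the arrest and kept after release, and the -auxin groups were handled alike without auxin. These 8 groups comprised 18 libraries, 3 for each mid-G1 group and 2 for each other group, while 4 libraries of triptolide-treated mid-G1 cells were not used here.

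The strength of a loop is given as observed contacts divided by those expected from its surroundings, taken as the mean of 9 pixels at the summit, so that 1 means no enrichment. The strengths in the loop table are of replicate-merged maps, 1 value per loop and group. Maps of single replicates were not analysed here, so the spread between replicates is not given and no difference between treatments was tested. Each median over loops is followed by a standard deviation (SD) over chromosomes, computed from the median of each chromosome with at least 5 such loops. It describes unevenness along the genome and is no replicate error. The contacts behind a single strength are not given in the table, and its precision is unknown.

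Sequences were read at anchors that recur below, to show what lies at them. The first set is from anchors of 2 loops among those with the largest falls with auxin, described further on as loop3582 and loop14215. Words close to the core of the CTCF motif, which read CCACNAG, a purine, G or T, and a closing GGC, were searched on both strands in the 30 kb window centred on each anchor. Each match is shown in capitals with 9 flanking bases on both sides, 5′ to 3′ on the strand that carries the word, in the NCBIM37 (mm9) assembly.
loop3582 upstream anchor, chr6:7683232-7683261, plus strand: aatcactgcCCACCAGGTGGCagtcatggt
loop14215 downstream anchor, chr10:21738603-21738632, plus strand: accttcatgCCACAAGAGGGCaccagatcc
loop14215 downstream anchor, chr10:21715218-21715247, minus strand: ttaaattcgCCACCAGAGGGCacacagaca
loop14215 downstream anchor, chr10:21730118-21730147, minus strand: ccggtacaaCCACCAGATGGCagcacgaac
None of these words lay in the windows at the other anchors of loop3582 and loop14215. At least 1 such word was found in 18.9% of the anchor windows of very long CRE loops, against 40.4% for structural loops above 500 kb and 10.4% of all 30 kb tiles of the genome. The authors' classes rest partly on CTCF sites at anchors, so this order of shares is in part set by the classification.

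The other set is from promoters inside anchors that several very long CRE loops share, those of Lbr (the lamin B receptor of the inner nuclear membrane), Cdk1 (the kinase that drives mitotic entry) and Rbm38 (an RNA-binding protein). The 250 bases before the transcription start are RefSeq promoter sequences from a table of GRCm38.p6, placed by exact match in NCBIM37. Capitals mark AGATAA, bound by GATA factors, and CCAAT, bound by NF-Y, each searched on both strands.
Lbr, chr1:183772533-183772782, minus strand: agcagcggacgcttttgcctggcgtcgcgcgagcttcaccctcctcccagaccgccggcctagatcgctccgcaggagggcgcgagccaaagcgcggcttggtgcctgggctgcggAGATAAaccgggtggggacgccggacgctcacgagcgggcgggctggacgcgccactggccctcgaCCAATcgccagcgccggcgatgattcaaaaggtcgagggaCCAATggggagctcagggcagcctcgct
Cdk1, chr10:68815661-68815910, minus strand: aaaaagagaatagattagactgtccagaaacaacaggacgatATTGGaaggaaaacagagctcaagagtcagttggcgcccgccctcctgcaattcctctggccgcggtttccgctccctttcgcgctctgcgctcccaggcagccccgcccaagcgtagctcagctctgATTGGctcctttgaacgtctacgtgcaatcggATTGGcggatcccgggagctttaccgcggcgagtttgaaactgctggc
Rbm38, chr2:172847153-172847402, plus strand: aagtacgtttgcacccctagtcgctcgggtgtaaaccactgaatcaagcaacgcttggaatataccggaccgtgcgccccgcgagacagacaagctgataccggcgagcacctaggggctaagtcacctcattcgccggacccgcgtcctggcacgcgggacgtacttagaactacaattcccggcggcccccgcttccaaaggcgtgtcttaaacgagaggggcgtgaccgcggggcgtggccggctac
The Lbr promoter held 1 AGATAA and 2 CCAAT words and the Cdk1 promoter 3 CCAAT words, whereas the Rbm38 promoter held neither. Among all 32536 RefSeq promoters, 9.97% held AGATAA and 33.8% held CCAAT. Of 1704 genes with a transcription start at an anchor of a very long CRE loop, only 1167 had a promoter in the table. A comparison of the loops' promoters with all others is void, since too many of these genes had none.

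Very long CRE loops spanned 510 to 2000 kb, with a median of 875 kb. In this group 385 loops were of 500 to 750 kb, 246 of 750 to 1000 kb, 254 of 1000 to 1500 kb and 144 of 1500 to 2000 kb. Chromosome 1 carried 164 of them, which is 34.7% of its CRE loops. Chromosome 3, which the paper left out of its compartment analysis because of a translocation, carried 89 (27.2% of its CRE loops). Without chromosome 3 the median mid-G1 strengths were 1.94 (-auxin) and 1.84 (+auxin), for 940 loops. Over all very long CRE loops, the summit was called in a 10 kb pixel for 411 and in a 25 kb pixel for 618. A wider pixel averages over more surrounding sequence, and strengths are therefore also given by summit width, since only 519 of 3613 shorter CRE loops had 25 kb summits.

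Without auxin, very long CRE loops were weak in prometaphase and grew from ana/telophase on. In prometaphase their median strength was 1.20 ± 0.06 (SD over chromosomes, 1029 loops). Ana/telophase cells had 1.65 ± 0.12, early-G1 cells 1.92 ± 0.17 and mid-G1 cells 1.94 ± 0.20. With auxin the 4 medians were 1.19 ± 0.10, 1.59 ± 0.08, 1.90 ± 0.17 and 1.84 ± 0.20. The pair of medians thus differed by less than the SD over chromosomes at every stage. Loops with 10 kb summits reached higher values, 2.64 without and 2.36 with auxin in mid-G1, than those with 25 kb summits, at 1.73 and 1.65. Shorter CRE loops had mid-G1 medians of 1.53 under both treatments. Across the size limit the values were close, with mid-G1 medians of 1.77 without and 1.71 with auxin for 107 loops of 510 to 550 kb and 1.79 and 1.68 for 200 loops of 450 to 500 kb.

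**Figure D1:**
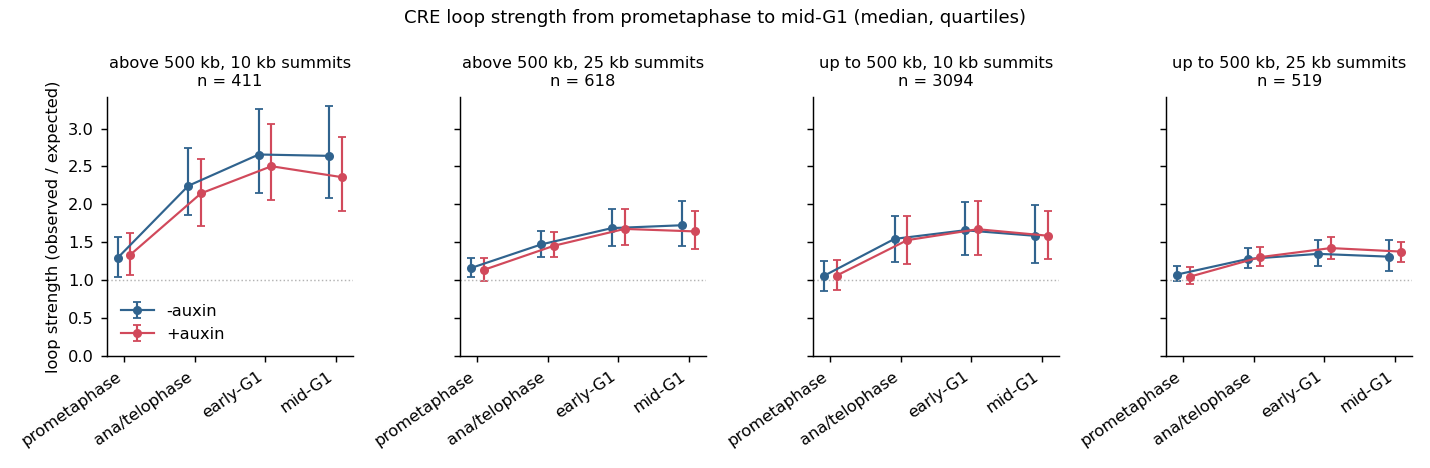
Median loop strength (observed over expected contacts) in 4 cell cycle stages without (blue) and with (red) auxin, for CRE loops above 500 kb and up to 500 kb, each split by summit width. Points are medians over loops and bars are quartiles over loops of 1 merged map. The 411 loops above 500 kb with 10 kb summits had the highest medians of the 4 groups, reaching 2.66 in early-G1 without auxin.

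By ana/telophase, very long CRE loops had made a smaller share of their gain than shorter CRE loops and a larger share than the table as a whole. Of the gain in mean strength from prometaphase to mid-G1, 63.9% ± 8.84 (SD over chromosomes) was present by ana/telophase and 97.0% ± 8.83 by early-G1 in -auxin cells, against 84.6% ± 5.49 and 109% ± 5.95 for shorter CRE loops. All loops together had 54.5% ± 1.64 and 85.3% ± 2.05, and dual-function loops above 500 kb 52.8% ± 8.55 and 89.8% ± 9.13. With auxin these shares were 67.4% ± 14.0 and 108% ± 13.3 for very long and 86.9% ± 6.33 and 117% ± 5.19 for shorter CRE loops. A share above 100% means that the mean strength was lower in mid-G1 than in early-G1. Without auxin, very long loops with 10 kb summits had 70.3% ± 14.5 and 99.9% ± 13.7 and those with 25 kb summits 53.8% ± 8.57 and 92.4% ± 9.73, so the mean still grew after early-G1 mainly for the wider summits. Structural loops above 500 kb had, without auxin, gained 37.8% ± 4.07 and 67.2% ± 4.60 at these stages. From ana/telophase to early-G1, 77.7% of very long and 69.7% of shorter CRE loops gained strength without auxin, where 82.6% of all loops did. Mid-G1 held the highest of the 4 values in 459 very long CRE loops (44.6%) without auxin and in 393 (38.2%) with auxin. The share in shorter CRE loops was 32.3% and 27.0%, that in dual-function loops above 500 kb 52.0% and 39.8%, and that over all loops 57.8% and 37.7%. The very long CRE loops were thus below all loops without auxin and close to them with auxin. Of 748 very long CRE loops called without auxin, 200 were called from ana/telophase, 265 from early-G1 and 283 first in mid-G1. This last share was 37.8% (95% interval 34.4 to 41.4%), against 23.8% (22.2 to 25.5%) of shorter CRE loops, 38.2% of dual-function loops above 500 kb and 39.3% of all loops. It is thus near the share over all loops. With auxin, 107 of 484 called loops (22.1%, interval 18.6 to 26.0%) were first called in mid-G1, close to the 19.2% of all loops and the 20.7% of dual-function loops above 500 kb. All shares of this kind carry intervals for counting error only.

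The median strength of very long CRE loops differed little between treatments. Ordered by time after release, the median log2(+auxin / -auxin) was -0.01 ± 0.07 (SD over chromosomes), -0.04 ± 0.06, -0.02 ± 0.06 and -0.08 ± 0.08. The table as a whole shifted downwards, with a median over all loops of -0.04, -0.21, -0.32 and -0.38. Relative to that shift the very long CRE loops lay 0.30 higher in mid-G1. Shorter CRE loops had a mid-G1 median of -0.01 ± 0.03, so lying above the shift was not particular to very long CRE loops. Structural loops above 500 kb had a mid-G1 median of -0.99, with median strengths of 2.75 without and 1.36 with auxin. Dual-function loops above 500 kb, a separate class of the authors with CTCF and cohesin sites and CREs at both anchors, had -0.30. Very long CRE loops with 10 kb summits had -0.13 ± 0.14 and those with 25 kb summits -0.05 ± 0.09.

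Single loops changed in both directions. A loop was counted as weaker or stronger with auxin when its log2 change was at least 0.32 in size. In mid-G1, 239 very long CRE loops (23.2%) were weaker, where 54.1% of all loops were, and 110 (10.7%) were stronger, where 8.2% of all loops were. Of shorter CRE loops 19.3% were weaker and 20.5% stronger, so very long loops were stronger less often than the rest of their class. After centring on the median of all loops, 50 very long CRE loops were weaker and 491 stronger by this measure. The share of all loops after the same centring is not given, so these counts have no background. The shift removed is that of all loops together, and shorter CRE loops had almost none of it, with a mid-G1 median of -0.01. The centred counts thus describe a distance from the other loop classes and not a gain of strength with auxin. Without centring, 185 very long CRE loops were weaker and 132 stronger in early-G1 (49.5% and 8.16% of all loops). In ana/telophase the counts were 145 and 83 (39.1% and 5.14% of all loops). Prometaphase, when loops are at their lowest, gave 204 weaker and 196 stronger loops (23.1% and 16.8% of all loops). The interquartile range of the log2 change was 0.47 in prometaphase and 0.46 in mid-G1. At all 3 post-mitotic stages, 48 very long CRE loops (4.66%) were weaker and 16 (1.55%) stronger, against 32.1% and 2.12% of all loops. The shares of shorter CRE loops were 6.59% and 5.92%. Over the 1029 loops, the mid-G1 strengths of the 2 treatments had a Pearson r of 0.74, and the prometaphase strengths 0.42. These are descriptions across loops that share the same 2 maps and partly the same anchors.

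**Figure D2:**
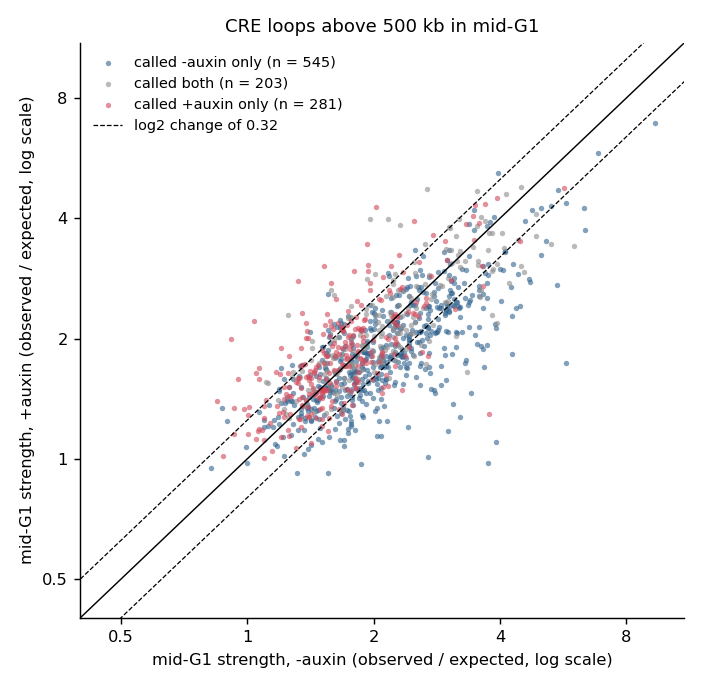
Strength of each CRE loop above 500 kb in mid-G1 without auxin (x axis) and with auxin (y axis), both as observed over expected contacts on log scales. Points are coloured by the treatment in which the authors called the loop, and dashed lines mark a log2 change of 0.32 in either direction. In all, 239 loops lie on or below the lower and 110 on or above the upper dashed line.

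The authors' loop calls divided the group more sharply than the strengths did. Only without auxin were 545 loops called (53.0%, 71.1% of all loops), in both treatments 203 (19.7%, 14.4% of all loops), and only with auxin 281 (27.3%, 14.6% of all loops). For the loops called only without auxin, mid-G1 medians were 2.10 (-auxin) and 1.82 (+auxin), with 195 weaker (35.8%) and 26 stronger loops (4.77%), where 54.1% and 8.2% of all loops were. Those called only with auxin had 1.65 and 1.75, with 19 weaker (6.76%) and 59 stronger, and those called in both had 2.15 and 2.10. The calls were made on the same maps that give the strengths. Loops called in only 1 treatment were thus selected for high values there, which in part sets the direction of these differences, and no conclusion is drawn from it. When a loop was instead counted as present wherever its strength was at least 1.5 in some post-mitotic map, 84.0% were present in both treatments, 5.15% only without and 4.76% only with auxin. Of the 545 loops called only without auxin, 241 were first called in mid-G1.

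The change varied with size among loops with 10 kb summits and less among those with 25 kb summits. In the classes of 25 kb summits the mid-G1 median log2 change lay between -0.07 and -0.02 in all 4 size classes above 500 kb, against 0.08 ± 0.09 for 397 loops of 200 to 500 kb. With 10 kb summits it was -0.13 ± 0.18 for 203 loops of 500 to 750 kb, -0.12 ± 0.15 for 92 of 750 to 1000 kb and 0.00 ± 0.21 for 78 of 1000 to 1500 kb. For 38 loops of 1500 to 2000 kb with 10 kb summits it was -0.29 ± 0.05, and 15 of these (39.5%) were weaker by this measure, where 57.7% of all loops with 10 kb summits were. For 946 shorter CRE loops of 200 to 500 kb with 10 kb summits it was 0.02 ± 0.09. The SD of the class of 1500 to 2000 kb rests on the few chromosomes with at least 5 such loops.

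**Figure D3:**
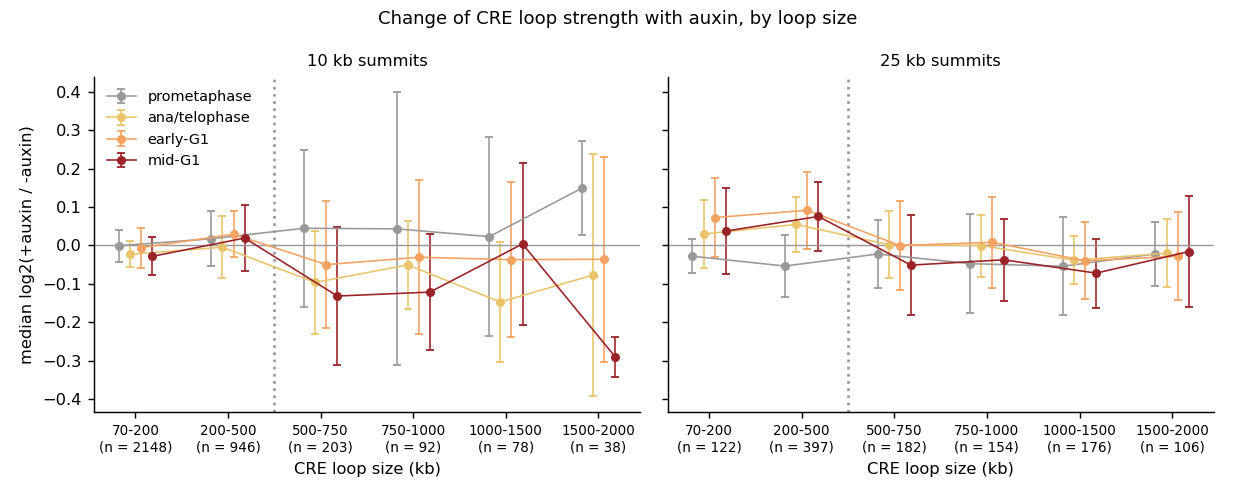
Median log2(+auxin / -auxin) of CRE loop strength by loop size (x axis, kb) for 10 kb and 25 kb summits, 1 colour per cell cycle stage. Bars are the SD of medians of single chromosomes with at least 5 loops, and the dotted line separates loops above 500 kb. Most medians lie within 1 SD of 0, and the lowest is that of 38 loops of 1500 to 2000 kb with 10 kb summits in mid-G1.

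Structural loops lie across most very long CRE loops. A structural loop is said to cross a CRE loop when only 1 of its anchor midpoints lies inside, and to encompass it when it holds both CRE anchors. Of the very long CRE loops 701 (68.1%, interval 65.2 to 70.9%) were crossed and 53 (5.15%, 3.96 to 6.68%) encompassed, and 648 (63.0%) held at least 1 whole structural loop. Of shorter CRE loops 42.2% were crossed and 37.8% encompassed. Loops of greater length have more room for crossing, so these shares also describe size. A total of 317 very long CRE loops were neither crossed nor encompassed, and 157 of these also held no structural loop.

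In mid-G1 the 701 crossed loops had medians of 1.88 (-auxin) and 1.80 (+auxin), and their log2 change had a median of -0.05 ± 0.09. The 317 loops neither crossed nor encompassed went from 2.20 to 2.01, with -0.15 ± 0.16, and 98 of them (30.9%) were weaker by the measure above, against 140 of the crossed loops and 54.1% of all loops. The gap between these medians exceeded the SD over chromosomes of the crossed loops but not that of the loops neither crossed nor encompassed. The 157 loops free of any structural loop went from 2.34 to 2.09, with -0.21 ± 0.14. With 10 kb summits, 138 loops neither crossed nor encompassed had -0.26 ± 0.14, and 59 of them (42.8%) were weaker by this measure. This share lies above the 32.8% of all very long CRE loops with 10 kb summits and below the 57.7% of all loops with 10 kb summits. Among shorter CRE loops the same split gave 0.17 ± 0.07 for 1526 crossed loops, which went from 1.44 to 1.61, and -0.04 ± 0.06 for 1236 loops neither crossed nor encompassed. Encompassed very long loops were few, and their median went from 1.99 to 1.78.

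The distance from the CRE anchor to the nearest anchor of a crossing structural loop, measured inside the CRE loop, had a median of 118 kb for very long and 76.2 kb for shorter crossed loops. These distance classes were chosen after the data were seen. With a crossing anchor within 50 kb, 196 very long CRE loops changed by a median of 0.01 (log2) in mid-G1, and 541 shorter ones by 0.30. In that class 25 very long loops (12.8%) and 256 shorter loops (47.3%) were stronger by this measure, where 10.7% of very long CRE loops and 8.2% of all loops were. The share of the very long loops is near both. The median strength there was 1.93 without and 1.89 with auxin for very long loops, and 1.24 and 1.52 for shorter loops. The shorter loops thus started lower and remained below the very long ones with auxin. At 50 to 100 kb, 119 very long loops had 0.04, with 14 stronger and 7 weaker among 43 loops with 10 kb summits (8.43% and 57.7% of all loops of that width) and 7 stronger and 7 weaker among 76 with 25 kb summits (7.37% and 41.1% of all loops of that width). At 100 to 200 kb the median of 156 loops was -0.07. Above 200 kb, 230 very long loops had -0.15 and 72 (31.3%) were weaker by this measure, below the 54.1% of all loops, while 182 shorter loops had -0.02. The difference between the size groups was not tested, since the loop table holds 1 merged value per loop and group.

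**Figure D4:**
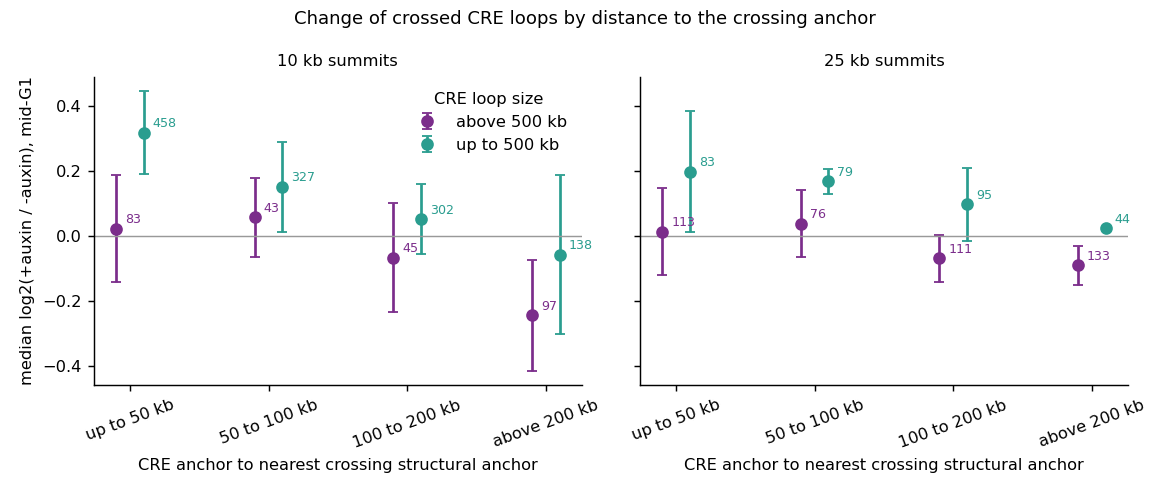
Median log2(+auxin / -auxin) in mid-G1 of crossed CRE loops above 500 kb (purple) and up to 500 kb (green), by distance from the CRE anchor to the nearest crossing structural anchor. Bars are the SD of medians of single chromosomes with at least 5 loops (none where fewer than 2 chromosomes qualified), and small numbers give the loops in each class. Within 50 kb the very long loops lie near 0 and the shorter ones at 0.32 for 10 kb summits.

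Very long CRE loops also ran across domain boundaries. A median of 3 boundaries lay between their anchors (quartiles 2 and 4, highest 8), and 2.24% spanned none, compared with 72.7% of shorter CRE loops, 2.44% of dual-function and 5.88% of structural loops above 500 kb. Per Mb of loop, very long CRE loops spanned 2.86 boundaries, dual-function loops above 500 kb 2.81 and structural ones 2.19. Of the boundaries spanned, 37.2% belonged to the authors' cluster 2, 30.5% to cluster 3 and 19.4% to cluster 1, where these clusters hold 31.9%, 27.1% and 20.4% of all boundaries. The 23 loops with no boundary between their anchors had mid-G1 medians of 2.72 without and 2.32 with auxin, or -0.26 as a log2 change. The 480 loops spanning 3 to 5 boundaries had 1.93 and 1.85, with a change of -0.03. These classes also differ in length and in summit width, as 16 of the 23 loops and 158 of the 480 had 10 kb summits. By width, the medians without boundaries were 3.57 without and 2.60 with auxin for 10 kb summits, against 2.66 and 2.40 with 3 to 5 boundaries. For 25 kb summits they were 1.68 and 1.83 in 7 loops, against 1.75 and 1.69 in 322, so that without auxin the order of the classes was reversed.

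The anchors were rich in genes. A transcription start of a protein-coding gene (GENCODE vM1) lay in 76.8% of the 30 kb anchor windows, against 68.5% for shorter CRE loops, 27.3% for structural loops above 500 kb and 20.1% of all 30 kb tiles. Dual-function loops above 500 kb, which also have CREs at both anchors, had 73.4%. The class of CRE loops requires a promoter or an enhancer at each anchor, so this order of shares is in part set by the classification. Both anchors held a start in 654 very long CRE loops, and neither in 69. The 654 loops went from a mid-G1 median of 1.97 to 1.84, and the 69 from 2.08 to 1.84. A median of 8 genes lay between the anchors. The 669 loops without a CTCF word at either anchor and the 32 loops with words at both had mid-G1 log2 changes of -0.08 and -0.11.

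Genes of the erythroid lineage and the cell cycle were found at these anchors. Of 29 erythroid regulators, 19 had their start at an anchor of some CRE loop and 7 at one of a very long CRE loop, which were Bach1, Cbfa2t3, Gata2, Myc, Runx1, Tal1 and Zfpm1. Of 33 globin, heme, iron and red cell membrane genes, 17 lay at a CRE loop anchor and 8 at a very long one, among them Alad, Alas2, Fech, Fth1, Gypc, Kel and Slc11a2. Of 38 cell cycle genes, 22 and 8 did so, the latter being Aurka, Ccnd2, Cdk1, Cdkn1b, Cdkn2c, Gmnn, Mki67 and Pcna. Of 32 genes for CTCF, cohesin, condensin and mediator, 18 lay at a CRE loop anchor and 3 (Esco1, Esco2 and Nipbl) at a very long one, while of 86 developmental transcription factors 6 and 1 (Pax6) did. Over all 22208 protein-coding genes the numbers were 5619 and 1704 (7.67%).

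Among the erythroid regulators the loop from Myc, a proliferation factor, was the strongest in mid-G1 without auxin. This loop14502, chr15:61810001-61820000 to chr15:63500001-63510000, had strengths from prometaphase to mid-G1 of 1.23, 2.67, 3.21 and 3.14 without auxin and 1.10, 2.27, 2.28 and 2.47 with auxin. It was lower with auxin in all 4 stages and was called only without auxin. Tal1, a master regulator of hematopoiesis, sat at the upstream anchor of loop11255 and loop8814, of which the first went from 2.00 to 2.31 and the second from 2.09 to 1.77 in mid-G1, so that the pair moved in opposite directions. The loop from Gata2, loop6850, had its highest value in ana/telophase in both treatments, 2.78 without and 3.61 with auxin. It had 0.850 without and 1.87 with auxin in early-G1, and 1.77 without and 1.36 with auxin in mid-G1, so that its direction turned between these stages. Bach1, a heme-sensing repressor, lay on loop13516 with mid-G1 strengths of 2.18 without and 2.65 with auxin, and Zfpm1, the GATA1 partner FOG1, on loop11801 with 1.67 without and 1.82 with auxin. Runx1 on loop12945 and Cbfa2t3 on loop7469 went from 1.26 to 1.14 and from 1.70 to 1.38 in mid-G1.

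Heme synthesis genes were represented by Alad, Alas2 and Fech, enzymes of the porphyrin pathway. The Alad loop1322 had strengths of 1.64, 3.77, 4.08 and 3.52 without auxin and 0.933, 2.87, 3.51 and 3.83 with auxin. It was lower with auxin through early-G1 and slightly higher in mid-G1, and it was crossed by no structural loop. The Alas2 loop12634 had mid-G1 values of 2.31 without and 2.66 with auxin. Fech lay at an anchor of 3 very long loops. Loop5549 went from 3.65 to 2.38 and loop12683 from 2.71 to 1.97 in mid-G1, while loop6545 went from 2.77 to 3.62, so loops of 1 promoter did not share a direction. The 3 loops of Kel, a blood group antigen gene, stayed between 1.12 and 1.84 in mid-G1 in both treatments. Gypc, the glycophorin C gene, lay on loop12976 with mid-G1 values of 1.12 without and 1.55 with auxin. Without and with auxin, the 2 loops of the iron transporter gene Slc11a2 had 1.56 and 1.64 (loop13284) and 1.43 and 1.41 (loop13837).

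Cdk1 anchored 4 very long loops. Toward Tfam, which encodes a mitochondrial transcription factor, loop3878 (chr10:68810001-68820000 to chr10:70700001-70710000) had strengths of 1.28, 3.73, 3.24 and 4.45 without auxin and 1.81, 2.19, 3.22 and 2.42 with auxin. A neighbouring 25 kb call, loop10803, shares the upstream anchor with loop3878, and its downstream pixel directly adjoins that of loop3878. Loop10803 had 1.12, 2.14, 2.07 and 2.89 without auxin and 1.14, 1.68, 1.82 and 1.53 with auxin. Both were lower with auxin in ana/telophase and mid-G1, and early-G1 values of loop3878 were level. From the same Cdk1 anchor, loop8086 toward Ccdc6 had mid-G1 values of 3.05 without and 3.33 with auxin, and loop12003 toward Cisd1 and Ipmk had 1.66 without and 2.13 with auxin. Both of these were higher with auxin. The 3 loops of Cdkn1b, which encodes the cyclin-dependent kinase inhibitor p27, had their highest value in ana/telophase (loop2117) or early-G1 (loop2339 and loop5874) in both treatments. Loop2339 had 1.17, 2.07, 4.23 and 2.97 without auxin and 2.82, 2.93, 5.61 and 3.35 with auxin, higher with auxin at every stage. Gmnn, the inhibitor of replication licensing, was joined by loop7959 to a histone cluster with Hist1h1a, Hist1h3a and Hist1h4a. That loop had 1.22, 2.84, 2.77 and 3.79 without auxin and 1.24, 3.06, 2.74 and 3.90 with auxin, nearly equal throughout. The loops of the other 5 cell cycle genes had 25 kb summits. Values without and with auxin in mid-G1 were 1.80 and 1.62 for Aurka, a mitotic kinase gene (loop12379), and 1.91 and 1.93 for the cyclin gene Ccnd2 (loop11142). The proliferation marker Mki67 (loop12490) had 2.22 and 2.27. Of the 2 loops of Cdkn2c, another inhibitor of cyclin-dependent kinases, loop11438 had 1.43 and 1.89 and loop13157 1.41 and 1.27.

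Among the genes for the loop machinery, Esco1, a cohesin acetyltransferase gene, lay on loop8759, which had 3.31 in early-G1 and 2.83 in mid-G1 without auxin and 2.67 and 2.39 with auxin. Its value was lower with auxin at all 4 stages. The other Esco1 loop, loop13980, had 1.27 without and 1.44 with auxin in mid-G1, and that of the cohesin loader gene Nipbl (loop10870) 1.61 and 1.79. Pax6, a gene of eye and brain development, lay on loop9699, which had 3.39 and 3.52 in early-G1 and 2.98 and 2.35 in mid-G1.

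The largest falls were ranked among 277 loops that were weaker with auxin at all 3 post-mitotic stages and had a strength of at least 1.5 in a mid-G1 map. The largest was that of loop3582, which joins an intergenic anchor (chr6:7680001-7690000) to an intron of Ica1 (chr6:8700001-8710000). Its strengths were 1.21, 3.48, 3.41 and 3.74 without auxin and 0.795, 1.60, 1.13 and 0.974 with auxin, a mid-G1 log2 change of -1.94. With auxin it was no stronger in mid-G1 than its surroundings. The CTCF word printed above lies at its upstream anchor.

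Another large fall was that of loop14215, between 2 intergenic anchors at chr10:21120001-21130000 and chr10:21720001-21730000. It had 1.31, 4.65, 4.59 and 5.73 without auxin and 1.20, 1.39, 1.96 and 1.73 with auxin, a mid-G1 change of -1.72. The separation of treatments was present from ana/telophase on. The 3 CTCF words printed above lie in the 30 kb window centred on its downstream anchor, but outside the 10 kb pixel itself. In the printed order they are 13617, 9768 and 5132 bp from the pixel's midpoint. No transcription start was annotated in that window.

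The largest rises were ranked in the same way among 144 loops whose 3 post-mitotic values were each higher with auxin, so single mid-G1 rises outside these loops, of up to 1.13 (log2), were not ranked. Loop6329, from Zdhhc17 (chr10:110440001-110450000) to chr10:111020001-111030000, had 0.972, 1.90, 1.49 and 1.04 without auxin and 1.56, 2.55, 1.90 and 2.21 with auxin, a mid-G1 change of 1.09. Without auxin it fell back to background in mid-G1. Loop5619, from an intron of Mbnl1 (chr3:60400001-60410000) to the small GTPase gene Rap2b (chr3:61160001-61170000), had 1.88, 1.17, 1.51 and 1.32 without auxin and 1.49, 1.95, 2.78 and 2.79 with auxin. It was higher with auxin at the 3 post-mitotic stages. Loop5871, from the antiviral gene Zc3hav1 (chr6:38290001-38300000) to an intron of Tbxas1 (chr6:38840001-38850000), had 1.63, 2.30, 2.90 and 1.96 without auxin and 1.21, 2.33, 3.39 and 3.99 with auxin. Its treatments were level in ana/telophase and parted in mid-G1. These 3 loops were crossed by 7, 2 and 6 structural loops, and loop3582 and loop14215 by 1 and 0.

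**Figure D5:**
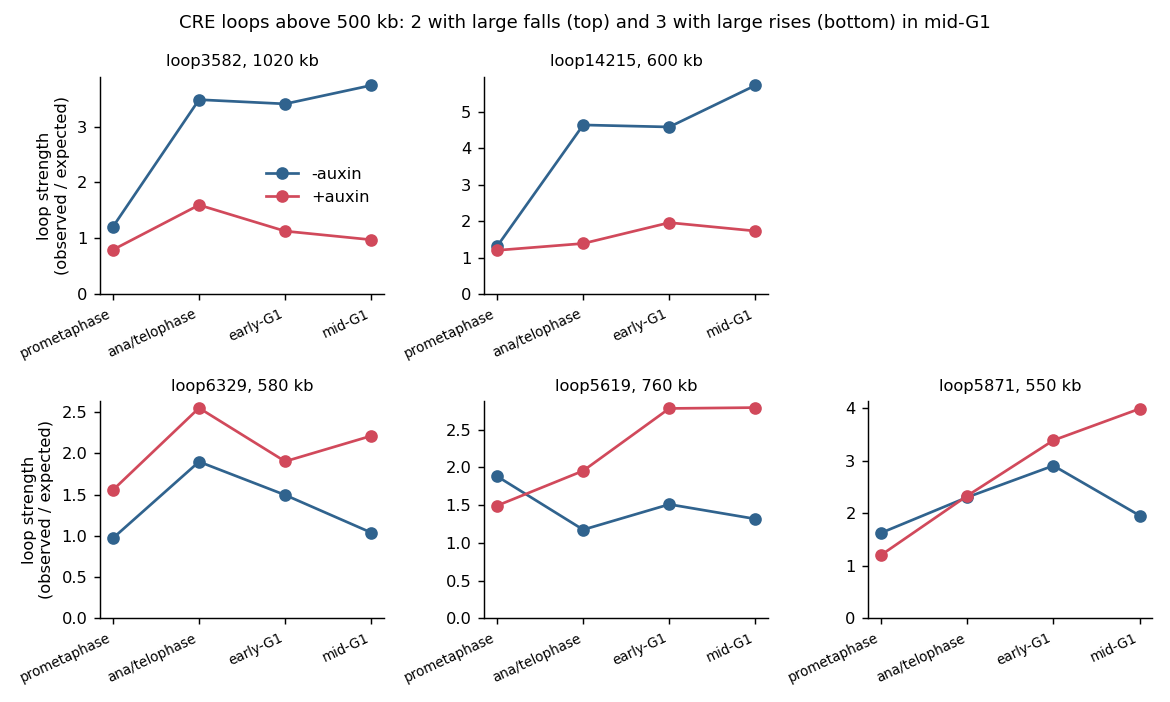
Strength (observed over expected contacts) by cell cycle stage of 2 CRE loops above 500 kb with large falls (top row) and the 3 with the largest mid-G1 rise among loops with 3 higher post-mitotic values (bottom row), without (blue) and with (red) auxin. Each point is the value of 1 merged map, and the y axes differ between panels. In the top row the mid-G1 values with auxin lie between 0.974 and 1.73.

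The strongest very long CRE loop in mid-G1 under both treatments was loop14111, which joins an intron of Abce1 (chr8:82210001-82220000) to Smarca5 (chr8:83250001-83260000), encoding a chromatin remodelling ATPase. It had 3.08, 6.21, 7.03 and 9.35 without auxin and 3.69, 5.29, 5.63 and 6.94 with auxin. Its log2 change in mid-G1 was -0.43. The other loops among the 3 strongest of either mid-G1 map changed less than those falls. Loop9761, from an intron of Dhx36 (chr3:62290001-62300000) to Gmps (chr3:63790001-63800000), an enzyme of guanine nucleotide synthesis, had 6.86 without and 5.83 with auxin in mid-G1. Loop982, from Mycbp and Rragc (chr4:123590001-123600000) to Utp11l and Fhl3 (chr4:124360001-124370000), had 6.38 without and 3.73 with auxin and was lower with auxin at all 4 stages. Loop7556, ending at the glycolytic gene Pgk1 on chromosome X, had 3.96 without and 5.20 with auxin. Its prometaphase strength without auxin is listed at 0, the only such value in the group, and no ratio was formed there. The longest loops measured 2000 kb, a size shared by 6 loops. Of these, loop11487 (chr6:134475001-134500000 to chr6:136475001-136500000) had mid-G1 values of 2.09 without and 2.15 with auxin, and loop11745, which ends at Arhgdib, 2.01 without and 1.65 with auxin.

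Many very long CRE loops shared anchors. Counting anchors within 15 kb as shared, the 2058 loop ends fell on 1498 anchors, of which 1139 were used once and 15 were used by 5 or more loops. In all 708 loops (68.8%) shared an anchor with another very long CRE loop, and the largest connected group held 18. Loops that share an anchor are not independent observations. In 394 loops (38.3%, interval 35.4 to 41.3%) a further anchor was linked by loops of the table to both ends, as in a triangle. The share was 42.9% for dual-function and 25.9% for structural loops above 500 kb. With 10 kb summits, loops in triangles had a mid-G1 change of -0.09 (204 loops) and the others -0.18 (207 loops), while with 25 kb summits the order was the other way, -0.07 (190 loops) and -0.05 (428 loops). Both gaps were smaller than the SD over chromosomes of all very long loops of that width (0.14 and 0.09).

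The anchor used most, by 9 loops, was that holding the starts of Lbr and Gm5533 (chr1:183760001-183810000). From ana/telophase to mid-G1 the median strength of these loops was 2.06, 2.20 and 2.34 without auxin and 1.70, 2.26 and 1.94 with auxin, and 6 of 9 were lower with auxin in mid-G1. Any value below that without auxin counts as lower here, which held for 59.0% of very long CRE loops and 77.1% of all loops. The mid-G1 change ranged from -1.01 in loop7227 to 0.19 in loop6946, which end in the same pixel of this anchor. The anchor of Aff3 (chr1:38697501-38752500), an AF4 family gene, served 8 loops with medians of 1.38 without and 1.58 with auxin in mid-G1, 2 of 8 being lower with auxin. The anchor of Zfp64 (chr2:168760001-168802500), a zinc finger gene, served 7 loops, among them loop3188 and loop3580 toward Zfp217, with mid-G1 medians of 2.74 and 2.51. Anchors at Pou4f1, at Rbm15 and at Gclm with Dnttip2 served 6 loops each, and their median mid-G1 log2 changes lay between -0.18 and 0.09.

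Of 9 anchors with 5 loops each, 5 had a median mid-G1 change below and 4 above 0. The loops were all lower with auxin at 1 of these anchors and all higher at 1, while the other 7 were mixed. The 2 uniform anchors, in Ica1 and at Rbm38, were singled out for these values. Among the mixed ones, 4 of 5 loops were lower at Stk17b (median -0.24) and at Hsp90b1 with BC030307 (-0.08), and 2 of 5 at Rpl38 with Ttyh2 (0.36).

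The anchor in Ica1 (chr6:8690001-8740000), to which loop3582 belongs, had medians from prometaphase to mid-G1 of 1.20, 3.48, 3.13 and 3.10 without auxin and 0.947, 1.60, 2.15 and 1.69 with auxin, and a median mid-G1 change of -1.12. All 5 loops had 10 kb summits, were called only without auxin and were lower with auxin from ana/telophase on. The mid-G1 strengths of loop7921 and loop8509 went from 3.67 to 1.69 and from 2.70 to 1.01. Those of loop8330 and loop4236, which start near Asns, the asparagine synthetase gene, went from 2.98 to 2.35 and from 3.10 to 2.76. Their upstream anchors lie in nearby pixels, so the 5 loops largely measure the same pair of regions.

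Loops of the Rbm38 anchor (chr2:172830001-172860000), all 5 with 10 kb summits, were higher with auxin in every case in early-G1 and mid-G1. Their median strength was 1.04, 2.53, 2.39 and 2.22 without auxin and 1.43, 2.62, 3.35 and 3.04 with auxin. Loop3035 toward Rab22a had 0.968, 1.70, 1.96 and 2.02 without auxin and 1.43, 2.15, 2.85 and 2.90 with auxin. Loop6476 toward Stx16 had 1.02, 1.68, 2.39 and 2.20 without auxin and 1.02, 1.80, 3.35 and 3.04 with auxin. The other loops, loop2407, loop5464 and loop5873, went from 4.14 to 4.60, from 2.22 to 2.54 and from 2.51 to 3.33 in mid-G1. Each of the 5 loops was crossed by 3 to 6 structural loops. They share 1 anchor pixel and 2 merged maps per stage, so they are not 5 separate observations of the effect of auxin.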

How the data were processed

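In situ Hi-C reads were processed by the authors with HiC-Pro on mm9. Per the labels, reads were aligned with Bowtie2. Replicates were merged by the authors before loops were called with a modified HICCUPS at 10 and 25 kb. Strengths were deposited as a ratio (observed contacts over a local expectation, mean of 9 pixels). The deposited boundary strength is an insulation signal, used here only for positions and the authors' clusters of 6376 boundaries called with rGMAP. Loop categories and stages of detection are the authors' labels. Boundaries within 20 kb of an anchor midpoint were not counted as spanned.

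Merging leaves 1 value per loop and group, so no test was run. No pseudocount was added before taking log2(+auxin / -auxin), and 3 of 16370 loops with a 0 in some map had no ratio there. A loop was counted as changed at a log2 change of 0.32 or more in size. Relations to structural loops were decided from anchor midpoints. Loops named are the 3 largest falls and 3 largest rises in mid-G1 with 1 sign at all 3 post-mitotic stages, the 3 strongest per mid-G1 map, the 2 longest, those over genes of the 5 lists, and the anchors shared by most loops. Only some of the last groups are printed, and 1 of the falls is not reported here. The loops, the lists and these rules were chosen with earlier results of these data known. Coordinates lie within the NCBIM37 chromosome lengths, and genes are those of GENCODE vM1. Geometry and summaries were tested on simulated data. Alternatives covered size, summit width, chromosomes, low values, shared anchors, pseudocounts, centring, folds and definitions of crossing. The CTCF words and crossing distances were chosen after seeing the data. No depth per loop is given, so intervals cover counting error only. Python 3.11.15, numpy 2.4.6, pandas 2.3.3 and matplotlib 3.10.9 were used.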

Additional observations from a re-analysis of the deposited data

How the results depend on the processing

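No paired analysis was possible because the loop table used here gives only replicate-merged strengths. Maps of single replicates were not analysed here, and leaving out a replicate was not run for the same reason. Of 141 alternative values for the main results, 100 stayed within the spread used as a yardstick (the SD over chromosomes, the counting interval, or 1.5-fold for counts) and 41 moved. Precision of single loops is limited by contacts per pixel, which the table does not give.

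Only 10 kb summits gave mid-G1 strengths of 2.64 without and 2.36 with auxin, and only 25 kb summits gave 1.73 without auxin. Centring on all loops turned the median log2 change to 0.18 (ana/telophase), 0.29 (early-G1) and 0.30 (mid-G1). Counts of weaker and stronger loops in mid-G1 fell with fewer loops: 146 and 69 above 750 kb, 89 and 42 above 1000 kb, 135 and 52 for 10 kb summits, 104 and 58 for 25 kb summits, 132 and 70 with strengths of at least 1 in all maps, and 147 and 57 with 1 loop per group of shared anchors. Centring gave 50 and 491, a 1.5-fold limit 77 and 29, and a pseudocount of 0.5 left 69 stronger. The share called only without auxin was 58.2% for 10 kb summits, 49.5% for 25 kb summits and 48.7% with strengths of at least 1, and 5.15% by strength. The share called in both was 22.9% with strengths of at least 1 and 84.0% by strength. The share called only with auxin was 24.4% above 1000 kb, 22.1% for 10 kb summits, 30.7% for 25 kb summits and 4.76% by strength. The share crossed was 65.2% for 10 kb summits, 64.3% with 1 loop per group and 63.6% with a 20 kb margin. It was 86.8% with all loops other than CRE loops counted, uncategorised ones included, and 55.7% with structural loops of strength at least 2. The share encompassed was 3.26% above 750 kb, 3.27% above 1000 kb and 20.5% with all loops other than CRE loops counted.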
